A study of Drosophila melanogaster with 2 samples.

Results

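The Hsp70 family genes Hsp68, Hsc70-1 and Hsc70-2 were followed among the 2377 genes that could be named on 2 spotted microarrays of whole adult flies sprayed with ethanol or with water. They were chosen by their measured ratios in this same comparison, so their values are given as a description and no test or p-value is attached to them. They are carried by 6 of the 8448 clones on the array (each taken as a pair of adjacent spots), or 12 of its 16896 spots: Hsp68 by 1 clone, Hsc70-1 by 3 and Hsc70-2 by 2. The flies were Oregon-R females aged 4 to 10 days. The ethanol group received a mist of 2 mL of 99% ethanol in a Potter's tower, an instrument that deposits a fine spray evenly on insects, and the water group received 2 mL of distilled water in the same way. An extract came from a pool of roughly 240 flies, and 80 µg of its total RNA went into labelling. The interval between spray and sampling is 4 h in the series text and 6 h in the labels of replicate 1. Each array set 1 ethanol extract against 1 water extract. On array 1 ethanol carried Cy3 and water Cy5, and on array 2 ethanol carried Cy5 and water Cy3.

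Hsp70 proteins are ATP-driven chaperones. They hold exposed hydrophobic stretches of unfolded proteins and release them for folding, with J-domain co-chaperones that stimulate ATP hydrolysis and exchange factors that reset the cycle. In Drosophila the family comprises heat-inducible genes, among them Hsp68 and the Hsp70A and Hsp70B copies, and cognate (Hsc70) genes that are expressed without heat. Hsc70-1 and Hsc70-2 are cognates. Others with the cognate name are the endoplasmic reticulum member Hsc70-3 (BiP), the abundant cytosolic Hsc70-4, the mitochondrial Hsc70-5 and Hsc70Cb. Of 13 family genes looked for, Hsp68, Hsc70-1 and Hsc70-2 had a spot with a single gene symbol. The remaining 10, which include all the Hsp70A and Hsp70B copies, Hsc70-3, Hsc70-4, Hsc70-5 and Hsc70Cb, had no value here. Members of this family resemble each other in sequence. Cross-hybridisation of clones to transcripts of other members was not tested, so a value names the clone's gene and may include others.

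The deposited value of a spot is a signed log ratio of its 2 channels, read here as log2, and its direction is not given in the sources used here. If the values are ethanol over water on both arrays, a positive value is higher in ethanol. The array titles name water before ethanol without saying which is divided by which. If the values are water over ethanol on both arrays, a positive value is lower in ethanol. If they are Cy5 over Cy3, a positive value is higher in water on array 1 and higher in ethanol on array 2. Values are therefore called positive or negative as deposited, and means are given both as deposited and with array 2 turned in sign. Turned this way, and with values that are Cy5 over Cy3, a positive mean is higher in water. Ratios give no expression level, so the labelled sex and stage could not be checked against marker levels. In whole flies, fewer cells of a type and less RNA per cell cannot be told apart.

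On array 1 all 3 genes had clearly positive ratios, and on array 2 they had small positive ratios. Hsc70-2 had a ratio of 1.87 on array 1 and 0.34 on array 2 on the log2 scale, which are 3.66-fold and 1.27-fold. Hsp68 had 1.42 and 0.47, which are 2.67-fold and 1.39-fold. Hsc70-1 had 1.12 and 0.27, which are 2.18-fold and 1.21-fold. The array 1 value exceeded the array 2 value in each gene, by 1.53 for Hsc70-2, 0.94 for Hsp68 and 0.85 for Hsc70-1. Averaged over clones, Hsc70-2 was highest on array 1, Hsp68 was highest on array 2 and Hsc70-1 was lowest on both. This order depended on the clones used: with each gene taken from the clone whose duplicate spots were closest, array 1 gave 1.78 for Hsc70-2, 1.69 for Hsc70-1 and 1.42 for Hsp68, and array 2 gave 0.48, 0.16 and 0.47 for these genes.

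As deposited, the means over the arrays were 1.11 ± 1.08 for Hsc70-2, 0.94 ± 0.67 for Hsp68 and 0.70 ± 0.60 for Hsc70-1 (SD, n = 2 arrays). Differences between neighbours in this order were smaller than those SDs. The SDs include the shift between arrays that these genes share, so they do not measure how well the order held. Averaged over clones, Hsp68 lay above Hsc70-1 on both arrays, while Hsc70-2 lay above Hsp68 on array 1 and below it on array 2. With array 2 turned in sign the means were 0.77 ± 1.57 for Hsc70-2, 0.47 ± 1.34 for Hsp68 and 0.43 ± 0.99 for Hsc70-1. Each turned mean was smaller than its SD, because the arrays then lie on opposite sides of 0.

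The spots of Hsp68, the stress-inducible member, were 1.35 and 1.48 on array 1. Its array 2 spots were 0.55 and 0.39. Within each array the spots of this gene lay close together and the values of the arrays did not overlap. Since Hsp68 had a single clone, no second clone could be set beside it.

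Hsc70-2 was measured by 2 clones. The first had spots of 2.16 and 1.77 on array 1 and of 0.05 and 0.35 on array 2. The second had spots of 1.80 and 1.77 on array 1 and of 0.22 and 0.74 on array 2. Both clones were thus high on array 1, at clone means of 1.96 and 1.78, and lower on array 2, at 0.20 and 0.48. The clones of Hsc70-2 differed by 0.18 on array 1, against a median range of 0.33 among the 288 genes with several clones, and by 0.28 on array 2, where that median was 0.30.

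Hsc70-1 was measured by 3 clones, which disagreed on array 1. The first had array 1 spots of 1.73 and 1.64 and array 2 spots of -0.0021 and 0.33. The second had array 1 spots of 1.45 and 1.25 and array 2 spots of 0.30 and 0.57. The third clone stood apart, with array 1 spots of 0.66 and 0.0012 and array 2 spots of 0.16 and 0.26. The clone means on array 1 were thus 1.69, 1.35 and 0.33, a range of 1.36 that was the tenth widest among the 288 genes with several clones. On array 2 the clone means were 0.16, 0.44 and 0.21, with a range of 0.27, close to the median range of 0.30. The array 1 spots of the third clone differed by 0.66, more than in 93.1% of all clones. Averaging over clones therefore gave Hsc70-1 a smaller array 1 ratio than either of its first 2 clones alone.

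**Figure D1:**
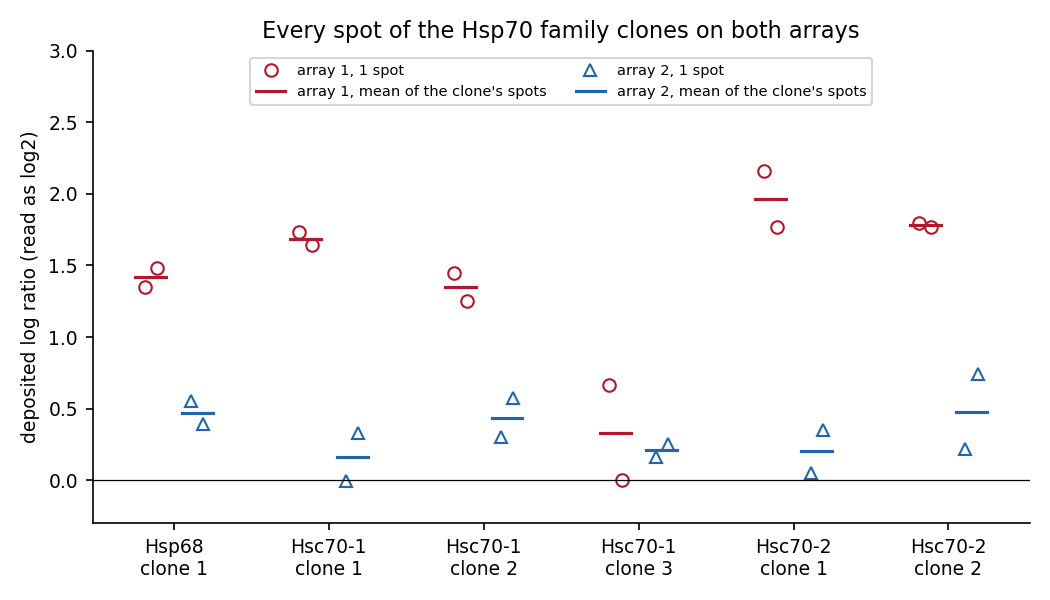
Deposited log ratio (read as log2, vertical axis) of every spot of the 6 Hsp70 family clones, with array 1 as circles, array 2 as triangles and the mean of a clone's spots as a bar. The array 1 spots lie at 1.25 or above in 5 clones, while the third Hsc70-1 clone has 0.66 and 0.0012, and the array 2 spots run from -0.0021 to 0.74.

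Over the 12 spots together, all were positive on array 1, from 0.0012 to 2.16 with a median of 1.56, and 11 were positive on array 2, from -0.0021 to 0.74 with a median of 0.32. Of all 16896 spots, 49.8% were positive on array 1 and 50.0% on array 2. The difference between a clone's spots was between 0.026 and 0.66 in the 6 clones on array 1, where the median over all clones was 0.16. On array 2 it was between 0.091 and 0.52, where the median was 0.32. The difference between the spots exceeded the clone's own mean in 3 of the 6 clones on array 2 and in 1 of the 6, the third Hsc70-1 clone, on array 1.

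Against the spread of all named genes, the 3 genes stood at the upper edge of array 1 and less far out on array 2. Among 2377 genes on array 1, Hsc70-2 ranked 4, Hsp68 ranked 6 and Hsc70-1 ranked 10, counted from the most positive ratio. On array 2 Hsc70-2 ranked 257, Hsp68 ranked 113 and Hsc70-1 ranked 373, which are percentiles of 89.2, 95.2 and 84.3. The array 2 ranks of Hsc70-2 and Hsc70-1 moved to 110 and 640 with the clone of closest duplicate spots, while Hsp68, with a single clone, ranked 117. In units of a robust SD over genes (scaled from the median absolute deviation), the array 1 ratios were 6.65 for Hsc70-2, 5.03 for Hsp68 and 3.99 for Hsc70-1. On array 2 they were 1.33, 1.84 and 1.05. The quartiles of all genes were -0.17 and 0.21 on array 1 and -0.17 and 0.18 on array 2, so the array 2 ratios of the family all lay above the upper quartile. On array 1 Hsc70-2 at 1.87 lay between genes at 1.99 and 1.53, Hsp68 at 1.42 between genes at 1.53 and 1.29, and Hsc70-1 at 1.12 between genes at 1.14 and 1.11. On array 2 the next genes in rank lay within 0.001 for all 3.

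**Figure D2:**
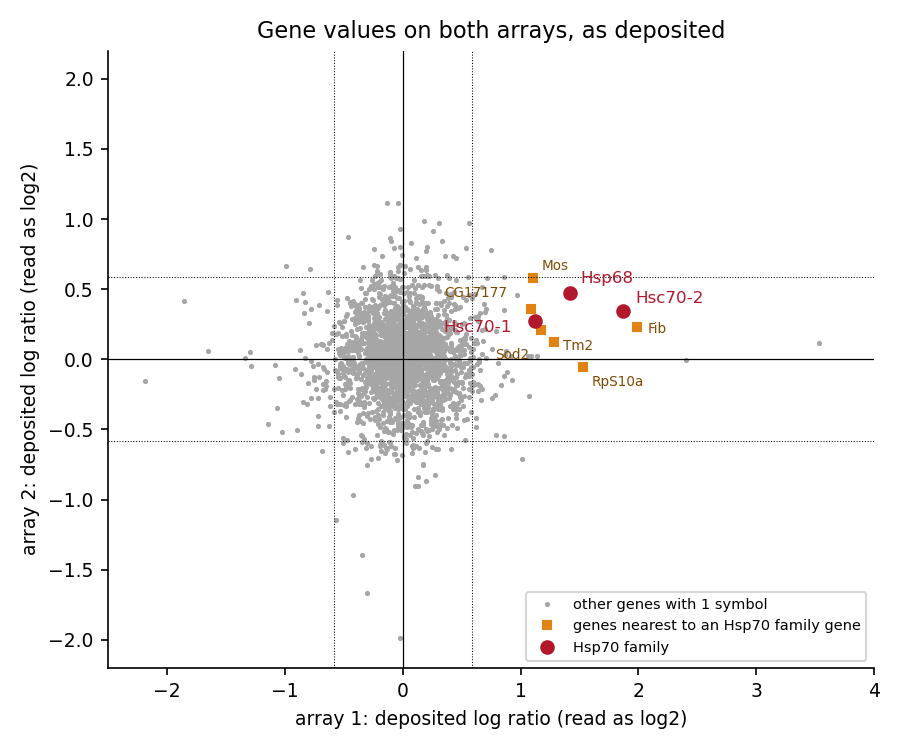
Gene values on array 1 (horizontal) against array 2 (vertical), as deposited and read as log2, for genes with 1 symbol. Dotted lines mark 1.5-fold, red points are the 3 Hsp70 family genes, orange squares are the 6 genes nearest to any of them, and 8 genes lie outside the plotted range. The family genes lie to the right of the cloud, at 1.12 to 1.87 on array 1, and in its upper part on array 2, at 0.27 to 0.47.

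A fold of 1.5 (0.58 on the log2 scale) was passed on array 1 by 3 of the 3 genes with a positive ratio, where the share of all genes was 3.20%. On array 2 it was passed by 0 of 3, where the share was 2.44%. Among clones, 5 of the 6 passed it with a positive ratio on array 1, where the share of all 8448 clones was 3.80%. A positive ratio of any size on both arrays was found in 3 of 3, against 26.6% of all genes. None of the 3 passed 1.5-fold on both arrays, with one sign (0.126% of all genes) or with opposite signs (0.126%). The mean as deposited passed 1.5-fold in 3 of 3, against 0.968% of all genes, and the mean with array 2 turned in 1 of 3, Hsc70-2, against 0.505%. Since the choice of the genes used these ratios, nothing is read from these shares.

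Over all genes, limma called 0 of 2377 at an adjusted p of 0.05 (0.00%), while 136 genes had an unadjusted p under 0.05. After turning the sign of array 2 it again called 0 (0.00%), and 95 genes had such an unadjusted p.

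Among clones the same 5 that were high on array 1 lay in a narrow band near the top. Both clones of Hsc70-2, the first 2 of Hsc70-1 and that of Hsp68 ranked 13, 15, 16, 24 and 21 of 8448 on array 1, so they made up 5 of its 24 highest clones. The third Hsc70-1 clone ranked 1219. The top group of 24 was cut at the lowest of these 5 clones. Of the other 19 clones in it, 10 had spots that differed by over 0.5 on array 1 and 5 had a single gene symbol. The 5 family clones in it had spots that differed by at most 0.39, and those of the third Hsc70-1 clone, outside it, differed by 0.66. On array 2 the 5 family clones were all positive, from 0.16 to 0.48. The other 19 ran from -0.60 to 0.41 with a median of 0.00024, and 10 of them were positive. The family genes were chosen by their ratios in this same comparison, which includes array 2, and the group was cut on array 1. These counts therefore carry no test, and nothing is read from them.

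Only the 3 family genes reached at least 1.12 on array 1 and at least 0.27 on array 2. These limits are the values of Hsc70-1, the lowest of the 3. The family's place within them was therefore fixed, and nothing is read from it. Mos, a protein kinase gene, lay just short at 1.11 and 0.58, as did CG17177 at 1.09 and 0.36. With the clone of closest duplicate spots, Hsc70-1 had 0.16 on array 2, below the limit. Of the 10 genes highest on array 1, 8 were positive on array 2 and 0 passed 1.5-fold there.

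Likeness to other genes was measured as the Euclidean distance between their pairs of array values. Nearest to Hsc70-1 were Sod2, the mitochondrial superoxide dismutase gene, at a distance of 0.082, with 1.17 on array 1 and 0.21 on array 2, then CG17177 at 0.091 and the tropomyosin gene Tm2 at 0.22. Nearest to Hsc70-2 was Fib, which encodes the nucleolar protein fibrillarin, at a distance of 0.16, with 1.99 and 0.23. Hsp68 itself came next at 0.47, followed by the ribosomal protein gene RpS10a at 0.52. Nearest to Hsp68 were Mos at 0.33, CG17177 at 0.35 and Hsc70-1 at 0.36. Each distance rests on 2 array values on the log2 scale.

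The other measured chaperone genes all lay nearer to 0 on array 1 than Hsc70-1 did, although Hsp60B came close on the negative side. Of 51 co-chaperones, chaperonins, small heat shock and related genes looked for, 17 were measured. Their ratios on array 1 ran from -1.09 to 0.45 with a median of 0.025, against 0.0089 over all genes. On array 2 they ran from -0.63 to 0.27 with a median of -0.078, against 0.010 over all genes. A positive ratio of 1.5-fold was reached by 0 of 17 on either array, where the shares of all genes were 3.20% and 2.44%. A negative one was reached by 2 on array 1 and 1 on array 2, against 70 and 55 of all 2377 genes. On both arrays 4 of 17 were positive and 6 negative, against 632 and 572 of all 2377 genes. With 17 genes nothing is read from these counts.

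The 4 of largest mean size in this group were all negative as deposited. Hsp60B, a chaperonin of the mitochondrial type, had -1.09 on array 1 and -0.037 on array 2. CG11267, listed with the synonym Hsp10 for the lid that works with Hsp60, had -0.68 and -0.18. The J-domain gene wus had -0.14 and -0.63. DnaJ-1, a J-domain co-chaperone of Hsp70 measured by 8 clones, had -0.37 and -0.32. With array 2 turned in sign, their means were -0.53 for Hsp60B, -0.25 for CG11267, 0.24 for wus and -0.029 for DnaJ-1, and DnaJ-1 then ranked 15 of 17 by size. On array 1 alone, which the turn leaves as it is, the highest of the other chaperones was the J-domain gene Droj2 at 0.45, below the 1.12 of Hsc70-1. The third Hsc70-1 clone, at 0.33 on array 1, lay below Droj2. On array 2 as deposited the highest was Hsp60C at 0.268, next to the 0.270 of Hsc70-1.

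**Figure D3:**
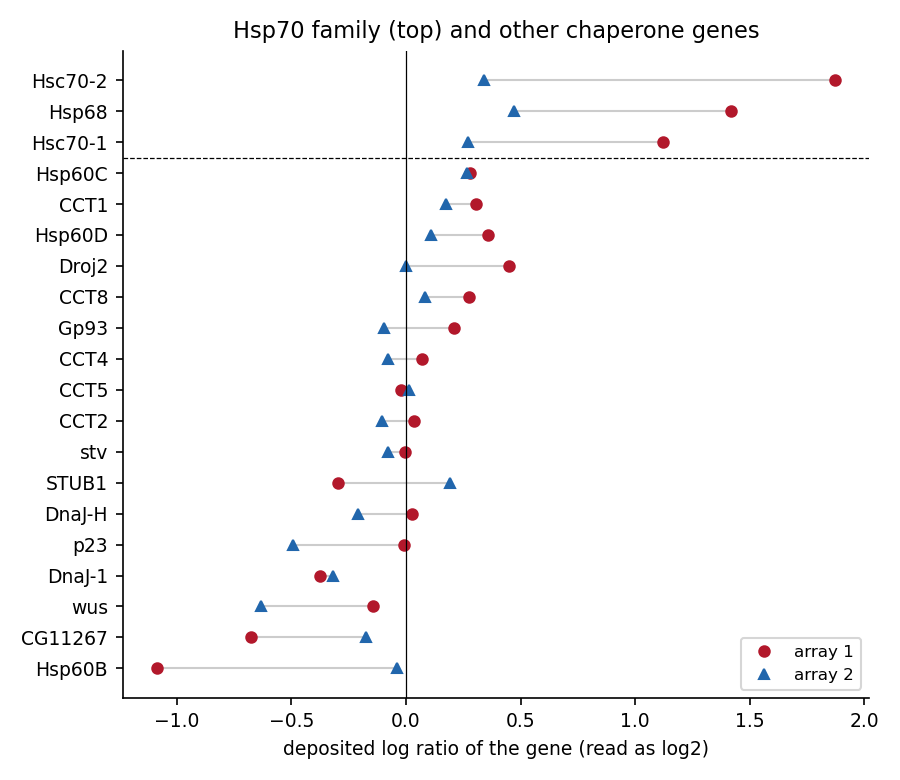
Deposited log ratio of each measured Hsp70 family gene (above the dashed line) and of 17 other chaperone genes, read as log2, with array 1 as circles and array 2 as triangles joined by a line. The family lies between 1.12 and 1.87 on array 1, while the other chaperones end at 0.45. On array 2 the family lies between 0.270 and 0.473, and the other chaperones end at 0.268.

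Position on the array was read from the 2 clones before and the 2 after each family clone in the order of the table. These 24 neighbours had a median of 0.089 on array 1, from -0.63 to 1.29, and of -0.091 on array 2, from -0.62 to 0.63. On array 1, 2 of the 24 were positive by 1.5-fold or more, where the share of all 8448 clones was 3.80%. Each directly followed a family clone. One was an unnamed clone at 0.70, after the first Hsc70-1 clone at 1.69. The other was a clone of CG2127 at 1.29, after the second Hsc70-2 clone at 1.78. CG2127 was printed as 13 clones, and this was its highest on array 1, where the others ran from -0.086 to 0.69. On array 2 that clone had 0.34, and the 13 clones ran from -0.47 to 0.77. The clones on either side of the first Hsc70-2 clone were at 0.32 and -0.042 on array 1, and those on either side of Hsp68 were at 0.28 and -0.38. Directly after the remaining family clones, array 1 values ran from -0.38 to 0.11. On array 2, 1 of the 24 neighbours was positive by 1.5-fold or more, against 2.44% of all named genes. It was a clone of CkIIbeta2 at 0.63, which did not lie directly beside a family clone. The part of array position in the family's ratios was not tested.

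**Figure D4:**
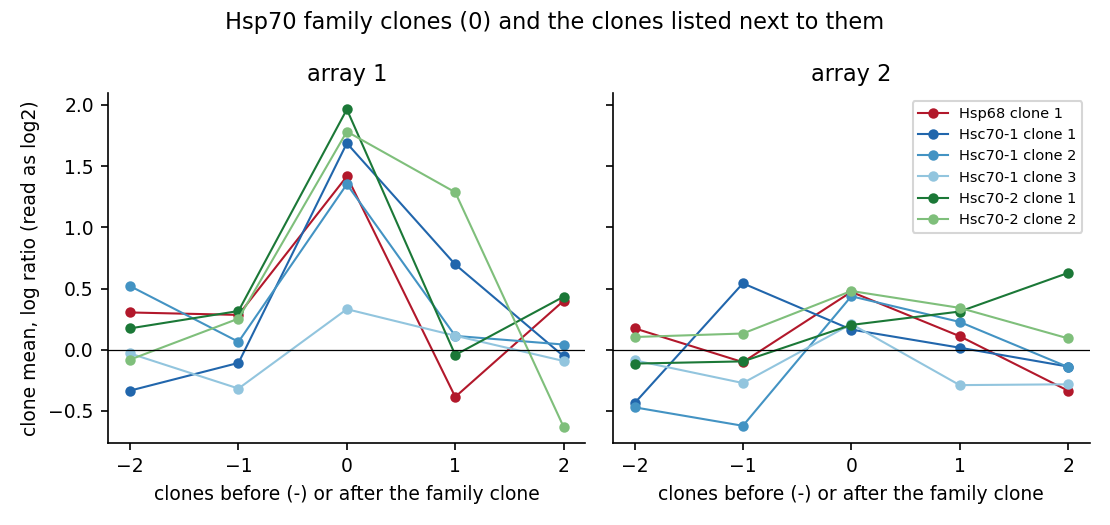
Clone means (log ratio read as log2, vertical axis) of the 6 Hsp70 family clones at position 0 and of the 2 clones listed before and after each, for array 1 (left) and array 2 (right). On array 1 the family clones form a peak at position 0, with a shoulder at 1.29 after the second Hsc70-2 clone and at 0.70 after the first Hsc70-1 clone, and on array 2 the family clones lie between 0.16 and 0.48, within the range of their neighbours.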

How the data were processed

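The values are log ratios of the 2 channels of each array, computed by the authors before they were deposited and read here as log2, because they are signed and centred near 0. How the authors corrected background, normalized the arrays, took the logarithm and oriented the ratio is not given in the sources used here. No spot intensity was analysed here, signal over background is therefore unknown, and precision is set by having only 2 arrays. Gene names came from the platform annotation: 5666 spots had 1 symbol, 152 several and 11078 none, and all 2377 genes matched the RefSeq gene table by Entrez identifier. Adjacent spots were taken as a clone. Spots were averaged per clone, then clones per gene. Over all genes the mean ratio was tested against 0 with limma 3.58.1 (R 4.3.3, lmFit and eBayes, Benjamini-Hochberg adjustment), and the fit was tested on simulated data. Other tables used pandas 2.3.3. The series text calls the arrays biological replicates, and with 2 of them the dye cannot be fitted beside the mean, so array, replicate and dye cannot be told apart. The genes, the 2 gene lists and the rule for named genes were chosen with earlier results of these data known. Named were the 3 family genes, the 4 other chaperones of largest mean size and the 3 genes nearest to each family gene. Droj2, Hsp60C and CG2127 were singled out after their values were seen. Alternatives were the sign of array 2, medians of spots, the clone with the closest duplicate spots, centring, scaling, robust eBayes, a natural-log reading and each array alone. No sequence of the clones or genes was used here.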

Additional observations from a re-analysis of the deposited data

How the results depend on the processing

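The mean ratios of the 3 family genes were positive under the 8 alternatives run for each. For the turned sign, each array alone and the natural-log reading this had to be so. Each gene's array 2 value was positive and below its array 1 value. With array 2 turned, the arrays lie on opposite sides of 0, so that positive mean is no agreement between them. With changes other than leaving out an array the means ran from 0.77 to 1.60 for Hsc70-2, from 0.47 to 1.36 for Hsp68 and from 0.43 to 1.01 for Hsc70-1. The lowest value came from turning array 2 in sign and the highest from reading the values as natural logs. With 1 array left out they ran from 0.34 to 1.87, from 0.47 to 1.42 and from 0.27 to 1.12. Taking the clone with the closest duplicate spots gave Hsc70-1 0.93. The count of family genes past 1.5-fold on both arrays with one sign was 0, and 1 with values read as natural logs. It was 0 to 3 on 1 array alone, with 3 on array 1. Over all genes that count was 3, and also 3 with array 2 turned in sign, centred arrays or medians of spots, 4 with the arrays put to a common spread, 36 as natural logs, and 113 to 146 on 1 array alone. limma called 0 genes with array 2 turned in sign, centred or scaled arrays, medians of spots or robust eBayes, with 95 to 145 at an unadjusted p under 0.05. With each gene taken from its clone with the closest duplicate spots, chosen for this count after seeing the data, limma called 25 genes, 9 positive and 16 negative, and its prior degrees of freedom were 165 against 14.8. The cause was not tested. The ratios are already paired, because each array sets its ethanol RNA against its water RNA, so no further pairing was added. With 1 array no test could be made.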

Other observations

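Of the 5 protein-coding genes on either side of each family gene in the RefSeq gene order (Release 6), 2 of 30 were measured, both beside Hsp68. SMC1, a cohesin subunit gene next to Hsp68, had 0.42 on array 1 and 0.061 on array 2, and Pisd, a phosphatidylserine decarboxylase gene, had -0.27 and -0.072. Hsp68 itself had 1.42 and 0.47.

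The order of the spots within a clone differed between the arrays in the 6 family clones. The second spot was higher than the first in 5 of the 6 clones on array 2, with a median difference of 0.29, and in 1 of 6 on array 1, with a median difference of -0.14. Over all 8448 clones the second spot was higher in 50.3% on array 2 and in 48.3% on array 1. The median size of the spot difference over all clones was 0.32 on array 2 and 0.16 on array 1. The family medians keep the sign of each difference, so these median sizes are not the same measure. With the sign kept, the median over all clones was 0.0041 on array 2 and -0.0097 on array 1. Whether the order in the family differs from that of all clones was not tested.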
